A study of Homo sapiens with 15 samples.

Results

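The cytosolic ribosomal protein genes encode the proteins of the large and the small subunit of the ribosome, and their promoters were described here by the chromatin loops that start from them in prostate cancer cells treated with androgen. Members were all protein-coding genes on chromosomes 1 to 22 and X whose symbol is RPL or RPS with a number and, where present, the suffix A, L, X or AL, together with RPLP0, RPLP1, RPLP2 and RPSA. Ribosomal protein S6 kinases, pseudogenes and genes on the Y chromosome were left out by this rule. This gave 82 genes among 19819 protein-coding genes, 50 of the large and 32 of the small subunit, on 21 chromosomes. The rule used gene annotation and none of the measured values, although earlier results of these data were known.

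Every cell that grows needs equal amounts of these proteins, so their genes are used as an example of housekeeping genes, which are active in nearly all cell types. They are transcribed from strong promoters, and their mRNAs begin with a run of pyrimidines, the terminal oligopyrimidine (TOP) tract, by which translation of the whole group is controlled through mTOR. H3K27ac is a histone acetylation found at active enhancers and promoters. H3K4me3 is a methylation found mainly at active promoters.

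The cells were LNCaP, a line from prostate cancer that responds to androgen. They were kept in medium with charcoal-stripped serum, which is low in steroids, and then received either vehicle (EtOH, called 0 m) or the androgen DHT, dihydrotestosterone, at 10 nM. DHT was given for 30 m or 4 h, and in the longer treatments for 16 h or 72 h, and values listed in order of time run from 0 m to 72 h. HiChIP, which joins and sequences DNA ends lying close together on chromatin carrying a chosen histone mark, covered 15 samples. H3K27ac was assayed in 10 of them, as 2 replicates at each time, and H3K4me3 in 5 with no repeat. Each loop has a single deposited value for a mark and time, so no replicate error can be given, and whether both H3K27ac replicates entered a value is not stated in the sources used here. That value is the contact frequency on a scale set among the time points of a mark (TMM), and the marks were scaled separately. Dividing by the worth of 1 read pair gave whole numbers throughout, and these counts of read pairs were used for precision. The 95% intervals below come from these counts, cover counting error only and say nothing of the spread between cultures. All changes of a mark share the same 0 m library. A change in contact per cell cannot be told apart from a change in the share of cells that hold the contact.

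A loop was given to a promoter when 1 of its 1 kb anchors lay within 2.5 kb of the start of the canonical transcript (hg19). Of 505995 different loops, 3521 belonged to ribosomal protein genes, 1.15% of the 307399 loops with a protein-coding promoter. Contact of either mark was taken over loops called in either mark. Of member loops, 58.0% were called in H3K4me3 alone, 20.3% in H3K27ac alone and 21.8% in both, beside 59.7%, 21.7% and 18.7% of all promoter loops. Libraries held between 2153262 and 10675614 read pairs in loops, of which the H3K4me3 library at 4 h was the deepest. The median ribosomal protein promoter had between 217 and 445.5 read pairs for H3K27ac and, for H3K4me3, between 336.5 and 1677.5, so that single promoters could be read, while most single loops (median 2 to 3 read pairs in H3K27ac) could not. The cell type markers went with the label in contact but not fully in loop number. The luminal prostate genes KLK3, TMPRSS2, FOXA1, HOXB13, KRT8 and KRT18 had between 9 and 68 loops each, and KRT5, KRT14 and TP63 of basal epithelium, PTPRC of leukocytes and COL1A2 of fibroblasts had 0. Of the other markers of leukocytes and fibroblasts, CD3E had 5 loops, PDGFRA 7 and COL1A1 17, more than KLK3 (13) and HOXB13 (9). Summed H3K27ac contact ran from 98.5 at KRT8 to 300 at HOXB13 among the luminal genes. It was 27.1 at COL1A1, 7.22 at CD3E and 2.34 at PDGFRA.

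The start regions of members are shown here because the TOP tract is the sequence feature by which these genes are known. RefSeq windows (GRCh38.p14, 250 bases before and 50 from the start on) were at hand for 65 of the 82 members, in 80 windows. The stretches below run from 40 bases before the start through the first 20 transcribed bases, and capitals mark a run of at least 5 C or T that covers a base from 2 before to 2 after the start. The genes are 3 with strong contact, 5 whose changes with DHT are given further on, and paralogs.
RPL41 (chr12:56116593-56116652, plus strand): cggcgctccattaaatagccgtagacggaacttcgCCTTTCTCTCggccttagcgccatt
RPL27A (chr11:8682752-8682811, plus strand): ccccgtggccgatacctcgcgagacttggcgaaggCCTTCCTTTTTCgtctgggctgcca
RPLP2 (chr11:809927-809986, plus strand): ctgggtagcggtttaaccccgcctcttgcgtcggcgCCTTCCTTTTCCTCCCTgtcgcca
RPS6 (chr9:19380217-19380276, minus strand): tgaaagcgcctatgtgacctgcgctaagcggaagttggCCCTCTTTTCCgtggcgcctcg
RPS21 (chr20:62387063-62387122, plus strand): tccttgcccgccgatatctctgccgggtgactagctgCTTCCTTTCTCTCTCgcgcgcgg
RPS23 (chr5:82278335-82278394, minus strand): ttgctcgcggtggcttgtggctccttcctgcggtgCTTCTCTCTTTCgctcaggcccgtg
RPL39 (chrX:119791611-119791670, minus strand): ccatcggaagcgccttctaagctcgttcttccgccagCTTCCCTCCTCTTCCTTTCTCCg
RPS15 (chr19:1438356-1438415, plus strand): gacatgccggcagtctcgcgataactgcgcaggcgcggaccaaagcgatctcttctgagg
RPS27 (chr1:153990722-153990781, plus strand): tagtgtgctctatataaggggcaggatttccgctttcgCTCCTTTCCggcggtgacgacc
RPS27L (chr15:63157458-63157517, minus strand): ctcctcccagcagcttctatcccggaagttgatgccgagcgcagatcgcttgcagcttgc
RPL36AL (chr14:49620607-49620666, minus strand): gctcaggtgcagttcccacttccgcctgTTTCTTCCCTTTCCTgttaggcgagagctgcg
RPL10L (chr14:46651762-46651821, minus strand): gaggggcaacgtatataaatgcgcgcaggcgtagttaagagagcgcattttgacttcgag
RPS15, RPS27L and RPL10L carried no such run at the annotated start, whereas the other 9 did. Among all member windows, 73.8% (59 of 80) held a run of at least 5 and 62.5% a run of at least 8, beside 26.0% and 9.21% of the 21442 windows of protein-coding genes. C was the annotated first base in 65% of member windows and in 11.4% of all windows. Searched from 10 bases before to 10 after the start on either strand, CTTTC was found in 38.8% of member windows and 5.10% of all windows. CTTCC was found in 33.8% and 10.1%, and the third letter string searched, CTTTT, in 17.5% and 3.596%, and a window can hold more than 1 of them.

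CCGGAAG, a core that ETS factors bind, was found on either strand of the whole window in 33.8% of member windows (27 of 80) and 12.9% of all windows. AAGATGGC, a core of YY1 sites, was found in the same window in 7.5% and 3.59%. TATAA lay 40 to 20 bases before the start on either strand in 12.5% and 5.52%. GGGCGG, which SP factors bind, was as frequent in member windows (56.3%) as in all (56.9%). A full palindromic androgen response element was found in 0 of the 80 member windows and in 0 of all 21442. Only exact matches were counted, and with 0 in all windows the search cannot set members apart and says nothing of inexact elements. Such matches describe letters only, and these windows were not set against the loops, whose build differs.

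Ribosomal protein promoters had more loops than the usual protein-coding promoter. At least 1 loop was found at 80 of the 82 members (97.6%), beside 82.0% of all protein-coding genes. The median member had 39.5 loops (quartiles 26.8 to 62.3) and the median protein-coding promoter with a loop had 20 (quartiles 6 to 38). Large and small subunit genes had nearly the same median, 39 and 40 loops. RPL15, RPL27A and RPS14 had the most, 105, 99 and 98 loops, and were picked out after their values were seen. RPL39L on chr3, a paralog known from testis, had 0. The plot of loops per promoter shows the curve of the members to the right of that of all genes over almost its whole range.

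**Figure D1:**
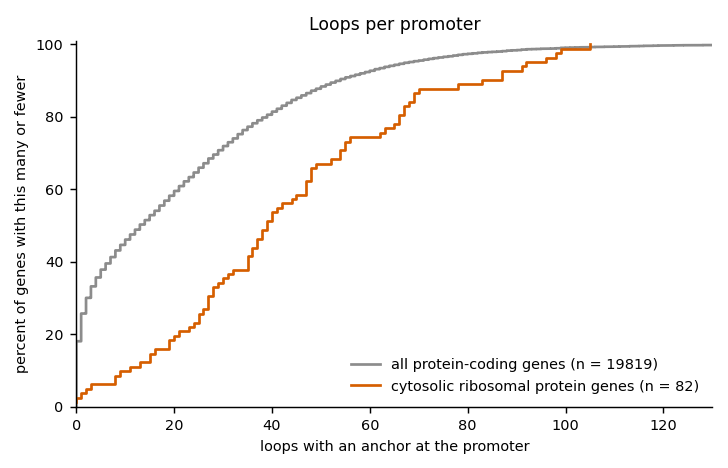
Cumulative share of genes (percent, vertical axis) with a given number of loops or fewer (horizontal axis) for 82 cytosolic ribosomal protein genes and all 19819 protein-coding genes, genes with 0 loops included. The median among genes with a loop is 39.5 for members and 20 for all.

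Their contact was high in both marks. Contact summed over the loops of a promoter and averaged over the 5 time points had a median of 68.1 for H3K27ac over members and of 20.6 over all promoters with a loop. For H3K4me3 the medians were 115 and 37.9. The median member stood at percentile 85.4 of all promoters for H3K27ac and 85.1 for H3K4me3, 70 of 80 lay above the middle of all promoters in each mark, and 31 and 30 lay above percentile 90. The mean contact of a loop at a promoter differed less, with medians of 1.39 against 0.973 for H3K27ac and 2.59 against 1.66 for H3K4me3. Across the 80 members the levels of the marks ran in nearly the same order (Spearman 0.89, a description over genes that share libraries and loops).

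The 4 lists of other genes described here stood between members and all promoters in both marks. The 78 mitochondrial ribosomal protein genes had a median percentile of 66.8 in H3K27ac and 73.7 in H3K4me3, the 26 ribosome assembly factors 66.6 and 76.4, the 74 oxidative phosphorylation genes with a loop 70.6 and 77.2, and the 19 translation factors and other genes with TOP mRNAs 79.1 and 71.1. Loop number separated these lists little from members, with medians of 34.5, 37, 42.5 and 43 loops in the same order.

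**Figure D2:**
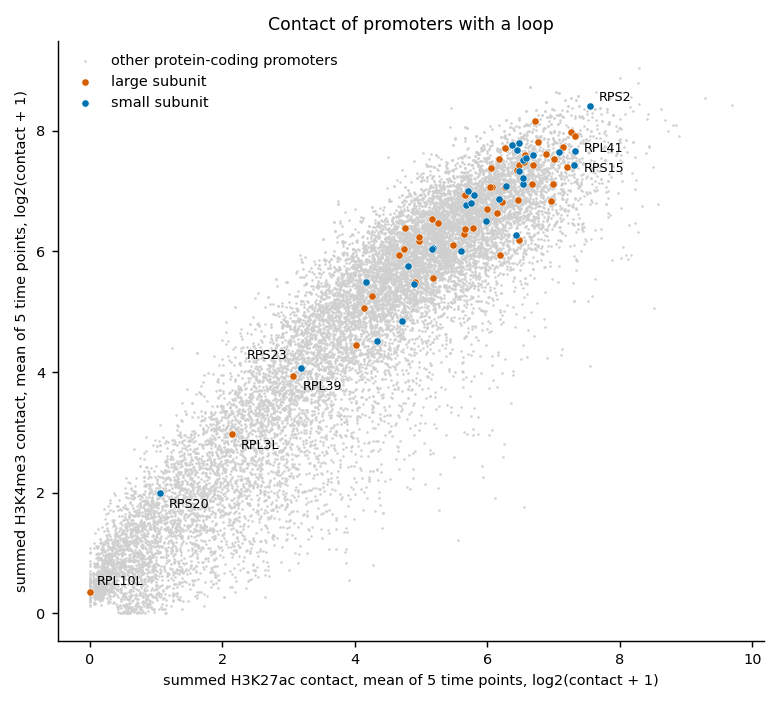
Summed contact of each promoter, as log2 of contact plus 1 averaged over 5 time points, for H3K27ac (horizontal) and H3K4me3 (vertical). Grey points are other protein-coding promoters with a loop, orange and blue points the large and small subunit genes, and most members lie at the upper right with RPL10L, RPS20, RPL3L, RPL39 and RPS23 at the lower left; the marks were scaled separately, so the axes are not comparable.

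RPS2, a small subunit protein near the mRNA entry site, was the strongest member in both marks. Its 70 loops summed to an H3K27ac contact of 167, 276, 182, 160 and 146 in order of time, and to an H3K4me3 contact of 364, 332, 412, 332 and 246. The 30 m value was the highest in H3K27ac, and the 72 h value was the lowest in both marks. RPS2 lay at percentile 98.9 for H3K27ac and 99.8 for H3K4me3. The next in H3K27ac were RPS15, RPL41, RPS9 and RPL27A, with mean summed contacts of 159, 159, 157 and 153, and RPL27A, RPL41 and RPLP2 were among the 5 highest in H3K4me3, with 250, 241 and 225. RPLP2 encodes a protein of the ribosomal stalk, which recruits elongation factors.

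RPL10L, RPS20, RPL3L, RPL39 and RPS23 were the lowest of the 80 in both marks, in this order. RPL10L, a retrotransposed copy of RPL10 known from testis, had 1 loop with 0 H3K27ac read pairs in all 5 libraries and 5 H3K4me3 read pairs in all. RPS20 on chr8 had 3 loops and a mean summed contact of 1.08 in H3K27ac and 2.97 in H3K4me3, although its product is part of every small subunit. RPL39, whose product lines the exit tunnel of the ribosome, had 8 loops and means of 7.40 and 14.3, and RPS23, which lies at the decoding centre, had 9 loops and means of 8.14 and 15.7. RPL5 and RPS19 followed them in H3K4me3, with 20.7 and 21.9. Low contact was thus found at genes of every ribosome as well as at paralogs with restricted use.

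The 5 pairs of a gene and its paralog ending in L differed in both directions. RPL3 had 27 loops and RPL3L, a form known from muscle, had 2, with mean summed H3K4me3 contacts of 60.2 and 6.82. RPL10 had 28 loops against 1 at RPL10L, and RPL39 had 8 against 0 at RPL39L. RPS27L, a p53 target, had more loops than RPS27, 69 against 52, with H3K4me3 contacts of 160 and 139 and H3K27ac contacts of 88.1 and 92.2. RPL36AL had 25 loops against 13 at RPL36A, and contacts of 91.8 against 32.5 in H3K4me3 and of 34.9 against 16.6 in H3K27ac. The 3 paralogs with tissue-restricted use had fewer loops than their partners, and the other 2, RPS27L and RPL36AL, had more.

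Loops of ribosomal protein promoters often had a promoter at both anchors. Both anchors lay at a protein-coding promoter in 28.3% of member loops (997 of 3521, exact binomial interval 26.8% to 29.8%) and in 15.1% of all promoter loops. These loops carried 46.6% of the H3K27ac and 46.2% of the H3K4me3 contact of members, beside 20.8% and 23.1% for all promoter loops. Among them were 13 loops with both anchors in the window of the same member, such as that within RPL23. All promoter loops were counted the same way. A partner promoter was found for 79 of the 80 members, with a median of 9.5 partner genes each and 1060 different partner genes in all. RPS2 had 53 and RPL41 had 50. Partners were not counted for all promoters, and members had more loops to find them with (median 39.5 against 20). Loops to other promoters held over 50% of the H3K27ac contact at 27 members and of the H3K4me3 contact at 30, and 92.2% and 91.2% at RPL41. The same count was not made over all promoters, so whether it is high for members is not known. Other gene starts were also near: within 50 kb, members had a median of 2 other protein-coding starts and all genes with a loop 1, and within 500 kb 14.5 and 12. The part of gene density in the share of promoter partners was not tested. At 23 members the window itself held the start of another gene, such as RPL7A and MED22 or RPS28 and NDUFA7, whose loops cannot be told apart.

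Members reached each other in 6 loops. The 5 of them described here were weak. RPS26 and RPL41 on chr12 were joined over 75 kb with mean contacts of 4.80 in H3K27ac and 10.5 in H3K4me3. RPS29 and RPL36AL on chr14 were joined over 35 kb with means of 2.94 and 7.61. RPL23 and RPL19 on chr17, 350 kb apart, had means of 1.34 and 3.63, and the loops RPL18-RPL13A (870 kb) and RPS9-RPL28 (1190 kb) on chr19 had at most 9 read pairs in any library. Partners from the other lists were 10 of 74 oxidative phosphorylation genes with a loop (13.5%), 3 of 78 mitochondrial ribosomal proteins (3.85%, among them MRPS34 at RPS2 and MRPS12 at RPS16), 2 of 26 assembly factors (7.69%, GNL3 and RRP9, both at RPL29) and 2 of 19 of the TOP list (10.5%, HNRNPA1 at RPS26 and RPL41, EIF3K at RPS16). Of all protein-coding genes with a loop that are no member, 6.49% were partners (1049 of 16166).

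The strongest loops were the shortest. All 10 strongest member loops of each mark joined neighbouring 5 kb bins, and 5 loops stood in both lists of 10. RPL23A-TLCD1 led in H3K27ac, with a mean of 105, in a window shared with RAB34. The loop from NDUFB10 across RPS2 to RNF151 led in H3K4me3, with a mean of 126. RPS15, RPL27A (in a window shared with TRIM66) and RPS9 had such a loop to a bin with no other gene start, with H3K27ac means of 66.9, 65.4 and 56.6, and GCN1-RPLP0 and TSEN34-RPS9 joined a neighbour's promoter with 48.2 and 47.1. Counted over all members, the 75 loops of 5 kb held 30.2% of the H3K27ac and 29.5% of the H3K4me3 contact at 0 m, beside 24.6% and 24.9% for all promoter loops. The median length of member loops was still longer than that of all promoter loops, 300 kb against 225 kb.

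With DHT, the H3K27ac contact of ribosomal protein loops was higher at 30 m, and at 16 h and 72 h it lay below that of other promoters relative to 0 m. Mean contact per loop was 1.44, 1.80, 1.47, 1.58 and 1.52 in order of time. The log2 changes from 0 m were 0.32 at 30 m (interval 0.29 to 0.35), 0.03 at 4 h (-0.000845 to 0.06), 0.14 at 16 h (0.11 to 0.16) and 0.07 at 72 h (0.04 to 0.10). These changes depend on the scale. With all libraries set to the same total of read pairs in loops, every promoter is lowered by 0.25 at 16 h and 0.17 at 72 h. The member changes then become -0.11 and -0.10. The difference from all other promoter loops is free of the scale. It was 0.04 at 30 m (interval 0.02 to 0.07), -0.0027 at 4 h (-0.03 to 0.03), -0.15 at 16 h (-0.18 to -0.12) and -0.18 at 72 h (-0.21 to -0.15). Accordingly the members' share of all H3K27ac promoter contact went from 1.44% at 0 m to 1.48%, 1.43%, 1.30% and 1.27%. Lower changes than those of all promoter loops (0.28 at 16 h and 0.25 at 72 h) were found in other lists too, with 0.13 and 0.14 for the loops of mitochondrial ribosomal proteins and 0.15 and 0.14 for those of oxidative phosphorylation genes.

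H3K4me3 contact followed another course. Mean contact per loop was 2.59, 2.67, 3.20, 2.98 and 2.16 in order of time, highest at 4 h and lowest at 72 h. The log2 changes were 0.04 (interval 0.02 to 0.07), 0.30 (0.29 to 0.32), 0.20 (0.18 to 0.22) and -0.26 (-0.29 to -0.24). Equal totals shift all H3K4me3 promoters by -0.22 at 4 h, -0.14 at 16 h and 0.13 at 72 h, which gives members 0.08, 0.07 and -0.14. The difference from other promoter loops was -0.01 at 30 m (-0.03 to 0.02), 0.04 at 4 h (0.02 to 0.06), 0.09 at 16 h (0.07 to 0.11) and -0.11 at 72 h (-0.13 to -0.08). At 16 h members were thus below other promoters in H3K27ac and above them in H3K4me3, and at 72 h below in both. Loops of mitochondrial ribosomal proteins had H3K4me3 changes of 0.06 at 16 h and -0.25 at 72 h. Those of oxidative phosphorylation genes had 0.13 and -0.22, and all promoter loops 0.12 and -0.16. Lying below all promoter loops at 72 h was thus found in these lists too. Large and small subunit genes had H3K27ac changes of 0.15 and 0.11 at 16 h and H3K4me3 changes of -0.26 and -0.27 at 72 h, with intervals that overlap. In H3K4me3 at 4 h their counting intervals did not overlap, with 0.33 (0.31 to 0.35) for the large and 0.26 (0.24 to 0.29) for the small subunit. The genes themselves overlapped widely, with medians of 0.30 (quartiles 0.15 to 0.53) for the large and 0.26 (0.12 to 0.49) for the small subunit.

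In H3K27ac the difference at 16 h and 72 h was wider in loops of 5 kb than in those of 20 kb or more. The H3K27ac contact of 5 kb member loops was 20.5, 28.5, 23.4, 27.4 and 24.4 in order of time. Their log2 change at 16 h was 0.42, against 0.73 for the 5 kb loops of other promoters, and at 72 h it was 0.25 against 0.58. In loops of 20 kb or more the changes were -0.02 against 0.08 at 16 h and -0.03 against 0.10 at 72 h. The differences were -0.31 (interval -0.36 to -0.26) and -0.33 (-0.38 to -0.28) for 5 kb and -0.10 (-0.13 to -0.06) and -0.13 (-0.17 to -0.09) for 20 kb or more. Member loops thus lay below the others in both length classes.

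**Figure D3:**
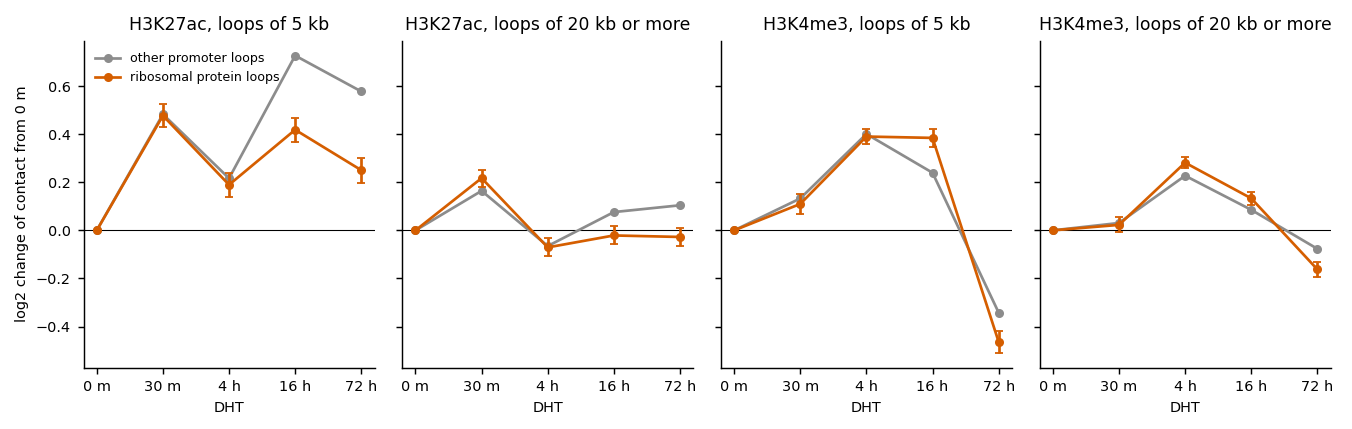
Log2 change of contact from 0 m (vertical axis) at each DHT time point for loops of ribosomal protein promoters (orange) and of all other protein-coding promoters (grey), by mark and loop length. Bars are 95% counting intervals of the difference between the groups; orange lies below grey in H3K27ac at 16 h and 72 h, by 0.31 and 0.33 in loops of 5 kb.

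Few single promoters passed a 1.5-fold change, and in most comparisons the share was at or under that of all promoters. With at least 50 read pairs over the time points, 78 members were measured in H3K27ac and 79 in H3K4me3. In H3K27ac at 30 m, 9 members were at least 1.5-fold higher and 0 lower, beside 18.7% and 4.98% of all promoters. Under equal totals 3 were higher and 0 lower, beside 12.6% and 6.67%. Among the 9 were RPS15 (log2 change 0.81), RPL38 (0.76), RPS2 (0.73), RPL18 (0.68), RPS13 (0.67), RPL28 (0.62), RPL13A (0.61) and RPL17 (0.60). At 4 h it was 0 and 1, beside 5.92% and 2.18%, at 16 h 9 and 4, beside 17.7% and 11.3%, and at 72 h 3 and 3, beside 17.5% and 8.59%. Under equal totals the split at 16 h was 1 higher and 12 lower, beside 7.85% and 21.1% of all promoters, and at 72 h 0 and 9, beside 9.43% and 13.8%, so the split rested on the scale for members and for all promoters. In H3K4me3 it was 0 and 0 at 30 m, beside 3.3% and 4.35%, 12 and 0 at 4 h, beside 15.3% and 3.46%, 6 and 1 at 16 h, beside 6.43% and 1.72%, and 0 and 5 at 72 h, beside 4.66% and 7.36%. Under equal totals the split was 3 and 2 at 4 h, beside 6.59% and 7.87%, 3 and 1 at 16 h, beside 3.84% and 3.06%, and 0 and 2 at 72 h, beside 6.62% and 3.51%.

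On a per-gene scale the gap to all promoters in H3K27ac at 16 h was smaller, -0.05 between the medians where the pooled difference was -0.15. The median log2 change of H3K27ac contact over members was 0.27, 0.02, 0.06 and 0.0031 from 30 m to 72 h, where all promoters had 0.25, 0.05, 0.12 and 0.15. In H3K4me3 it was 0.06, 0.30, 0.25 and -0.21, where all promoters had 0.03, 0.22, 0.12 and -0.14. At 16 h, 34 of 78 members lay above the H3K27ac median of all promoters and 56 of 79 above the H3K4me3 median. The mitochondrial ribosomal proteins had medians of 0.06 in H3K27ac and 0.10 in H3K4me3 at 16 h, the oxidative phosphorylation genes 0.08 and 0.20, the assembly factors 0.05 and 0.20, and the translation factors and other TOP genes 0.05 and 0.25. Each of these lists, like the members, lay under the H3K27ac median of all promoters at 16 h. In H3K4me3 the oxidative phosphorylation, assembly and TOP lists lay above the median of all promoters, and the mitochondrial ribosomal proteins below.

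**Figure D4:**
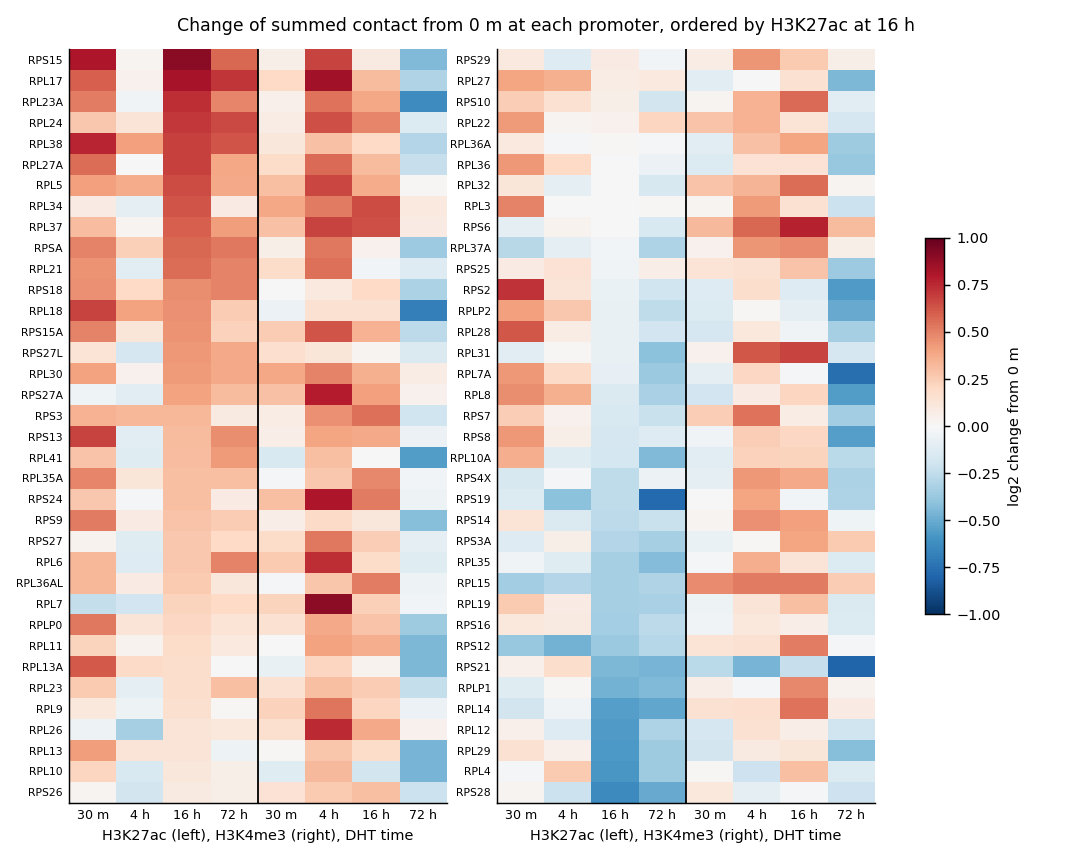
Log2 change of summed contact from 0 m (colour) for 72 of the 75 members with at least 30 read pairs in every library, 1 row per gene, ordered by H3K27ac at 16 h from the top of the left panel to the bottom of the right one, with the H3K27ac times left and the H3K4me3 times right of the line. RPS15 (0.90) and RPL17 (0.82) come first and RPS28 (-0.64) last, and the last column, H3K4me3 at 72 h, is blue (lower) for most genes.

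RPS15, RPL17, RPL23A and RPL24 had the largest H3K27ac increases at 16 h among the 62 members with at least 100 read pairs at both times. RPS15, a protein of the small subunit head, had an H3K27ac contact of 112, 196, 114, 209 and 167 in order of time, with a log2 change of 0.90 at 16 h (interval 0.73 to 1.07). Its values at 30 m, 16 h and 72 h stood above those at 0 m and 4 h. RPL17, at the exit tunnel, had 91.1, 138, 93.8, 161 and 149 in the same order, a change of 0.82 (0.63 to 1.02) at 16 h and of 0.71 (0.51 to 0.92) at 72 h. RPL23A, at the mouth of that tunnel, had 95.8, 136, 93.4, 159 and 134, a change of 0.74 (0.55 to 0.93). RPL24 had 37.6, 45.3, 41.2, 61.4 and 59.5, a change of 0.71 (0.40 to 1.02). RPS15, RPL17 and RPL23A had a high value at 30 m and again from 16 h on, as did all promoter loops, whose mean H3K27ac contact was 1.15, 1.40, 1.18, 1.40 and 1.37 in order of time. Much of it lay in a single short loop: the 5 kb loop of RPS15 went from 40.6 at 0 m to 96.6 at 16 h, that from RPL17 to C18orf32 from 32.9 to 95.5, and that from RPL23A to TLCD1 from 77.6 to 141.8. RPL17 shares its window with the readthrough gene RPL17-C18orf32. With loops of 20 kb or more alone, 1 member and not 9 was at least 1.5-fold higher at 16 h, where the share of all promoters went from 17.7% to 11.3%.

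RPS28, RPL29, RPL12 and RPL14 had the lowest H3K27ac changes at 16 h among the same 62 members. RPS28, near the mRNA exit site, had 97.0, 99.0, 83.3, 62.2 and 68.4 in order of time, a log2 change of -0.64 at 16 h (interval -0.87 to -0.41) and of -0.50 at 72 h (-0.74 to -0.26). RPL29 changed by -0.57 (-0.83 to -0.32), RPL12, at the base of the stalk, by -0.57 (-0.78 to -0.36), and RPL14 by -0.55 (-0.93 to -0.17). Both late values of RPS28 lay under the 3 earlier ones. At 72 h, among the 60 members with 100 read pairs at 0 m and 72 h, the lowest after RPS28 were RPS21, RPL10A and RPL7A, with -0.46, -0.44 and -0.37, and the highest after RPL17 were RPL24, RPS15 and RPL21, with 0.66, 0.57 and 0.50. Of the 3 members at least 1.5-fold higher at 72 h the third was RPL38 (0.63). Those lower were RPS23 (-0.92), RPL3L (-0.84) and RPS19 (-0.78). RPL38 and RPS19 are named only because their values were seen. RPS23 had 39 H3K27ac read pairs at 0 m and 23 at 72 h, and RPL3L had 2 loops. With at least 200 read pairs over the time points, 1 of the lower members was left, beside 5.18% of all promoters. RPS19, mutated in Diamond-Blackfan anaemia, had 11 loops.

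In H3K4me3 the largest increases at 16 h were at RPS6, RPL31, RPL34 and RPL37 among 72 members with 100 read pairs at both times. RPS6, the substrate of S6 kinases, had 57.3, 71.7, 85.1, 97.8 and 71.2 in order of time, a log2 change of 0.77 at 16 h (interval 0.53 to 1.01). Its H3K27ac contact lay between 79.2 and 90.2 at all 5 time points. RPL31 changed by 0.68 (0.38 to 0.99), RPL34 by 0.65 (0.31 to 0.996) and RPL37 by 0.64 (0.43 to 0.85). The lowest were RPS21 (-0.23), RPL10 (-0.18), RPS2 (-0.13) and RPLP2 (-0.10). Of these intervals, that of RPL10 (-0.42 to 0.05) and that of RPLP2 (-0.22 to 0.03) held 0.

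At 72 h H3K4me3 contact was under the 0 m level at most members. Its interval lay below 0 at 34 of 80 members (42.5%), beside 24.2% of all promoters, and above 0 at 2, RPS6 (0.31) and RPL15 (0.25), beside 3.32%. Such shares also follow depth, since more read pairs give narrower intervals, and the median member had 3436 H3K4me3 read pairs over the 5 libraries where the median promoter had 1113. Under equal totals 24 members lay below 0 and 4 above, beside 14% and 8.19%. RPS21, a small subunit protein, had an H3K4me3 contact of 160, 133, 116, 136 and 91.8 in order of time, a log2 change of -0.80 (interval -0.998 to -0.60). All its later values were under that at 0 m, in contrast to the pooled course, which was highest at 4 h. Among the 71 members with 100 read pairs at both times, RPL7A followed with -0.76 (-0.95 to -0.57), RPL18 with -0.68 (-0.86 to -0.50) and RPL23A with -0.63 (-0.87 to -0.39). At 4 h, the interval of 56 of 79 members lay above 0 and that of 2 below, beside 38.9% and 6.35% of all promoters, and under equal totals 25 and 9, beside 19.6% and 17.9%. Among the 56 were RPL17 (0.84), RPS15 (0.68) and RPL37 (0.67).

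**Figure D5:**
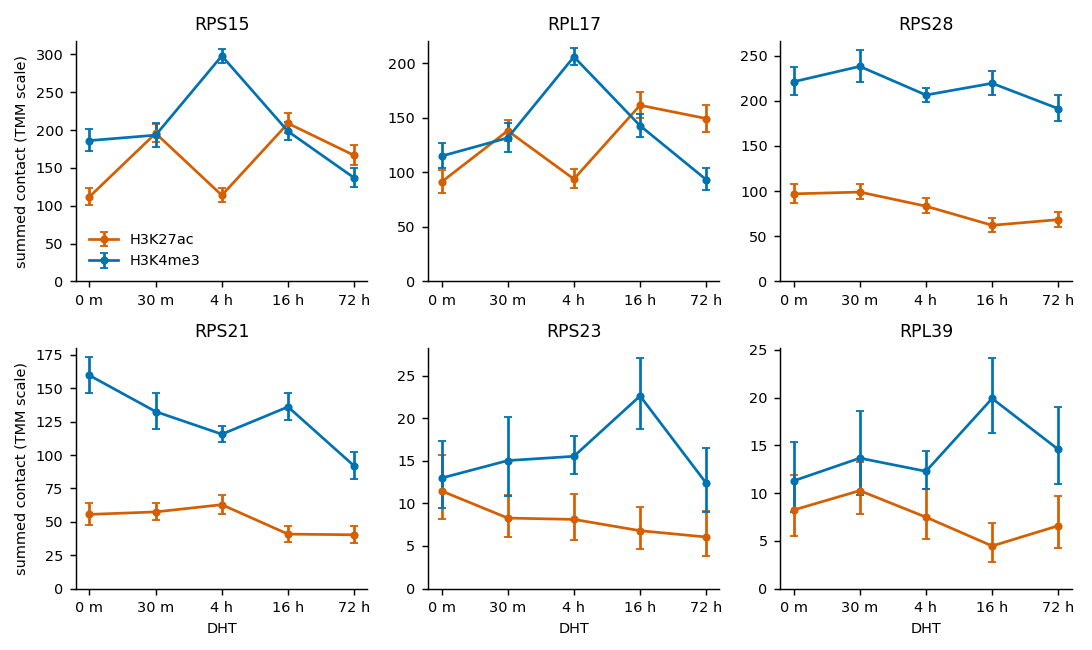
Summed contact (TMM scale, vertical axis from 0) at 5 time points for 6 members, with H3K27ac in orange and H3K4me3 in blue; bars are exact 95% Poisson intervals of the read pairs. RPS15 and RPL17 have high H3K27ac values at 30 m, 16 h and 72 h and an H3K4me3 peak at 4 h, RPS28 is low in H3K27ac at 16 h, RPS21 is lowest in H3K4me3 at 72 h, and RPS23 and RPL39 part between the marks at 16 h.

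The marks did not order the members alike. Among members with at least 100 read pairs in all 4 libraries, the Spearman correlation between the H3K27ac and the H3K4me3 change was -0.27, -0.40 and 0.18 from 30 m to 16 h (62 genes each) and 0.12 at 72 h (60 genes), given as a description over genes that share libraries. Intervals on opposite sides of 0 were found at 6, 3, 9 and 11 of 79 members from 30 m to 72 h, beside 3.11%, 4.2%, 3.57% and 10.3% of all promoters, and under equal totals at 8, 8, 10 and 6, beside 3.55%, 4.57%, 4.31% and 5.35%. At 16 h H3K27ac was the lower mark at all 9, beside 2.08% of all promoters, and RPL14, RPL15, RPL19, RPS23 and RPL39 were among them on both scales. At 72 h it was the higher mark at 10 of 11, beside 9.98% of all promoters, and under equal totals at 4 (RPS15, RPL23A, RPL41 and RPS18), beside 3.87%. RPL15 was on opposite sides at each of the 4 time points on both scales, with H3K27ac contacts of 58.8 at 0 m and 46.1 to 48.1 later and H3K4me3 contacts of 94.2 at 0 m and 112 to 135 later.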

How the data were processed

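HiChIP loops of LNCaP cells were taken from 10 tables, 1 per mark and time point. Per the labels, trimming used Trim Galore 0.5.0, and Bowtie2 and HiC-Pro 3.1.0 gave read pairs on hg19. Loops came from FitHiChIP and contact from Cooler. The authors deposited TMM-scaled contact as a signal per loop, with each mark scaled on its own. All values (100%) were whole multiples of 1 read pair, to within 1e-06 of the count, so counts were recovered. The values of a mark and time point held 2153262 to 10675614 read pairs in the listed loops.

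The tables held 574817 rows, 505995 different loops, of 5 kb to 3 Mb. A loop belonged to a gene when a 1 kb anchor overlapped (at least 1 bp) the 2.5 kb on either side of its Ensembl canonical start (Gencode release 44 lifted to GRCh37). This start was chosen after the start of the gene record was seen to lie over 2.5 kb away at 8 members. The members and lists were chosen with earlier results of these data known.

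Contact was summed per promoter or averaged over loops, each counted once. With 1 value per mark and time point there was no replicate test. Intervals (95%) are exact conditional binomial intervals from read pairs, and those of a difference between members and other promoters use the normal approximation on the log ratio of 4 counts. Both cover counting error only. Calls are 1.5-fold with at least 50 read pairs over the 5 time points. Named were members with no loop, the 5 highest and 5 lowest levels, the 4 highest and 4 lowest changes at 16 h and 72 h with 100 read pairs at both times, the 10 strongest loops per mark, members joined to members and paralogs ending in L. Others were picked after their values were seen (RPL38, RPS19, RPS13, RPL5, RPS14 and those named at 30 m or with marks apart). Scripts were tested on simulated data (Python 3.11.15, numpy 2.4.6, pandas 2.3.3, scipy 1.17.1, matplotlib 3.10.9). Results on some named members, on 1 comparison list and on some partners are not reported here, and their values stay in the counts and medians.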

Additional observations from a re-analysis of the deposited data

Results flagged for a closer look

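Pooled over all member loops, the marks lay on opposite sides of 0 m at 72 h, with a log2 change of 0.071 in H3K27ac and -0.26 in H3K4me3. The loops of all protein-coding promoters were split likewise, with 0.25 and -0.16, so the split is not particular to members. It did not hold for members under equal totals, where both were negative (-0.10 and -0.14), or in loops of at least 20 kb (-0.027 and -0.16). RPS23 and RPL39 were apart in the other direction at 16 h, with H3K27ac lower and H3K4me3 higher: RPS23 had -0.75 and 0.80, and RPL39 had -0.88 and 0.82. These results stand out because the counting intervals of the marks fall on opposite sides of 0, and the difference between marks was not tested. RPS23 and RPL39 rest on few H3K27ac read pairs, 39 and 28 at 0 m and 32 and 21 at 16 h.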

How the results depend on the processing

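No paired analysis was possible because each mark and time point has 1 deposited value, and leaving out a replicate could not be done for the same reason. Of 232 values under 22 other settings and 16 more chosen after seeing the data, 156 stayed within the interval or within 1.5 times the count. The H3K27ac log2 changes at 16 h and 72 h turned to -0.11 and -0.10 under equal totals and to -0.021 and -0.027 in loops of at least 20 kb, while those at 30 m and 4 h became 0.23 and -0.041, and 0.22 and -0.071. The H3K4me3 changes at 4 h, 16 h and 72 h became 0.081, 0.069 and -0.14 under equal totals and 0.28, 0.13 and -0.16 from 20 kb on. Among loops whose mean contact reached 1, H3K27ac gave 0.37, 0.22 and 0.12 at 30 m, 16 h and 72 h and H3K4me3 -0.30 at 72 h. In the mark's own loop set H3K27ac gave 0.36, 0.21 and 0.13 and H3K4me3 0.33 at 4 h. Medians over members were 0.27, 0.063 and 0.0031 in H3K27ac at 30 m, 16 h and 72 h and 0.25 and -0.21 in H3K4me3 at 16 h and 72 h. A 1 kb window gave 0.033 in H3K27ac at 72 h and 0.23 in H3K4me3 at 16 h.

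Counts past 1.5-fold also moved. Under equal totals H3K27ac had 3 higher at 30 m, 1 higher and 12 lower at 16 h and 0 and 9 at 72 h, and H3K4me3 3 and 2 at 4 h, 3 higher at 16 h and 2 lower at 72 h. From 20 kb on, H3K27ac had 5 higher and 1 lower at 30 m (15.7% and 6.76% of all promoters), 1 and 9 at 16 h (11.3% and 14.3%) and 0 and 7 at 72 h (13.4% and 10.5%), and H3K4me3 1 higher at 30 m (3.83%) and at 72 h (5.12%). At 2-fold 1 member was left among the lower ones at 16 h in H3K27ac (3.45% of all promoters) and 0 in every other changed count (0.354% to 4.47%). With 200 read pairs, H3K27ac had 0, 1 and 1 lower at 4 h, 16 h and 72 h (0.736%, 6.71% and 5.18%) and H3K4me3 0 lower at 16 h (0.436%). With no minimum, 1 was lower at 30 m in each mark (8.94% and 6.90%), 2 in H3K27ac at 4 h (4.90%) and 2 in H3K4me3 at 16 h (3.70%). The gene record start gave 1 higher in H3K27ac at 4 h (6.30%). Median loop number was 18 among loops whose mean contact reached 1 in either mark (all promoters 11) and 17 in the H3K27ac set (9). In these settings loops with a promoter at both anchors made up 33.6% and 33.2% (17.5% and 16.8% for all). They made up 29.9% in the H3K4me3 set (16.6%) and 41.8% with all transcript starts (26.6%). The cause was not tested. Depth limits single loops and members with few read pairs.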
